A study of Homo sapiens with 95 samples.

Results

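The genes described here are 10 immediate early genes, EGR1, FOS, FOSB, FOSL1, JUN, JUNB, IER2, IER3, KLF6 and MYC, found by symbol among the 23895 genes listed for every well. The list was chosen by gene identity with the measured rise of EGR1 under NNK, 1 of the chemicals below, already known from these counts. Levels are given as CPM, a gene's count scaled to the total count of its well, in AALE cells, an immortalized human bronchial epithelial line. Expression was measured by 3′ digital gene expression (3′DGE), in which wells are told apart by barcodes and every counted molecule by its own unique molecular identifier (UMI), so that 1 UMI adds 1 count. The 95 wells covered 8 cell populations and 4 chemicals. The overexpressed genes were PIK3CA, NRG1, FGFR1 and NRF2 (NFE2L2), with HcRed-expressing cells as their control, and the remaining populations were CRISPR knockouts of FAT1 or CDKN2A, with cells given a Cas9 and GFP plasmid without a guide as their control (called GFP below). Wells received NNK, a nitrosamine of tobacco, at 490 µM, the polycyclic hydrocarbon benzo[a]pyrene (BaP) at 173 µM, cigarette smoke condensate (CSC) at 24 µg/ml, or DMSO as the vehicle. All populations shared the AALE background, and neither the number of clones behind each population nor the exposure time was stated in the sources used here.

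As a class, immediate early genes are transcribed within minutes of a growth factor, a stress or a kinase signal, without need for new protein. Whether each listed gene, FOSL1 included, behaves so in these cells was not measured. The signal commonly runs through the ERK kinases to the serum response factor SRF and its ETS partners, which bind CArG boxes and neighbouring ETS sites in promoters, or through CREB and AP-1 at cyclic AMP response elements. Their messages are short-lived, and many encode transcription factors. FOS, FOSB and FOSL1 pair with JUN or JUNB to form AP-1, EGR1 and KLF6 are zinc finger factors, MYC drives growth programmes as a dimer with MAX, IER2 is a nuclear regulator, and IER3 is a stress-response gene that modulates survival signalling.

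The promoters of the members that moved most broadly are shown to let the elements above be seen. A RefSeq promoter window of 300 bases (250 before and 50 after the gene's start, GRCh38.p14) was matched for 7 members and none was matched for FOSL1, IER3 and MYC. EGR1 and FOS are the members that were higher under all 3 chemicals in the largest number of populations, and JUNB is shown as a further AP-1 subunit. Capitals mark any match, on either strand, to the CArG box that binds SRF, to the TATA box motif TATAAA, to the AP-1 motif spelled TGANTCA, or to the core of the cyclic AMP response element, which was searched for as TGACG in either orientation.
EGR1 chr5:138465229-138465528 (+): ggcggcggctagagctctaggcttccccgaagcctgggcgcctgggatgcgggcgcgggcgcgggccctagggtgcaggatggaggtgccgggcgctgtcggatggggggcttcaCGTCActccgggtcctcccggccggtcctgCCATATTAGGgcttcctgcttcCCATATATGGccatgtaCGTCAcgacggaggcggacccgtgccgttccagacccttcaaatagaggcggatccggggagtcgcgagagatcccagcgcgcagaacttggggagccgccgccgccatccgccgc
FOS chr14:75278578-75278877 (+): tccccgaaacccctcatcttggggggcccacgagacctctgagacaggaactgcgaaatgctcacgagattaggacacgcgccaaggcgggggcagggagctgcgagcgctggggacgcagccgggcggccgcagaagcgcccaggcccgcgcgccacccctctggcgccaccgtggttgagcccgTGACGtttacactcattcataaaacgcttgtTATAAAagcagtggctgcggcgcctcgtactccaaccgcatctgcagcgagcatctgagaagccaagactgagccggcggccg
JUNB chr19:12791236-12791535 (+): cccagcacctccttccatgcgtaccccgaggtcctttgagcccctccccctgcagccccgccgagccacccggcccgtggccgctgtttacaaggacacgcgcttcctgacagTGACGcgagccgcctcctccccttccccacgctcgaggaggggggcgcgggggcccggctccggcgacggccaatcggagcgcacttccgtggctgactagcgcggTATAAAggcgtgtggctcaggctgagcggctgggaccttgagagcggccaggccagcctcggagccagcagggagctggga
The EGR1 window held 2 CArG boxes, beginning 105 and 83 bases before the start, and no other member's window held one, against 1.29% of 35116 promoters of the same length. TATAAA stood 33 bases before the start in FOS, 30 in FOSB and 31 in JUNB, and was found in 11.5% of all promoters. TGACG was present in 6 of the 7 windows (EGR1, FOS, FOSB, JUN, JUNB and IER2), against 24.6% of all promoters. TGANTCA was in none of the 7 and in 7.71% of all promoters. These are matches of letters within these windows and not measured binding sites. Sequence more than 250 bases before the start was not searched, so a motif missing here may lie further upstream.

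In the hg19 build used for counting, EGR1 spans bases 137801168 to 137804992 of chromosome 5 on the forward strand and FOS 75745529 to 75748933 of chromosome 14, also forward. FOSL1 lies at 65659520 to 65668044 of chromosome 11 on the reverse strand, IER3 at 30710976 to 30712325 of chromosome 6, reverse, and KLF6 at 3818188 to 3827473 of chromosome 10, reverse. JUN spans 59242517 to 59249720 of chromosome 1, reverse. JUNB (12902300 to 12904129), IER2 (13261225 to 13265725) and FOSB (45971253 to 45978437) all lie forward on chromosome 19, and MYC at 128747680 to 128755197 of chromosome 8, forward. The selected GENCODE transcripts of JUN and JUNB have 1 exon each, those of EGR1, IER2 and IER3 have 2, that of MYC 3 and those of the rest 4.

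The wells were compared as labelled. Replicate numbers of 1 digit were carried by 82 wells and of 2 digits by 13. Of the 82, the second NNK replicate of NRG1 stood above all others for EGR1, FOS, FOSL1, IER3 and KLF6. It was left out, so levels and comparisons used 81 wells and the other 14 are given separately. The study described its replicates as biological, and the sources used here did not say whether the wells of a group were separate cultures. The p-values therefore set differences against the spread between these wells, which may not be that between cultures. Total counts per well ran from 692446 to 1895735. In DMSO the targeted genes followed the labels: NFE2L2 averaged 152 CPM against 44.8 in HcRed, FGFR1 22.9 against 4.05, NRG1 108 against 0.258, PIK3CA 11.9 against 2.17, FAT1 1.90 against 8.35 in GFP, and CDKN2A 21.4 against 36.7. Of 10 basal airway markers 9 averaged at least 1 CPM (KRT5 188, TP63 20.7), whereas the endothelial markers CDH5 and VWF and the T cell marker CD3E had no count in any of the 81 wells. Of the markers of other lineages CD68 averaged 18.4 CPM, DCN 3.93 and PECAM1 1.34. No row of the library plate mixed chemicals, which means that the effects of row and chemical cannot be told apart. Barcodes and depth also followed the chemical in the 1-digit wells. Barcodes held on average 1 G or C base under DMSO, 1.24 under CSC, 4.74 under BaP and 5 under NNK. Median total counts were 1426280.5, 1318389, 1255412 and 1171386.5 in the same order. In these bulk wells a change in the number of cells expressing a gene and a change in RNA per cell cannot be told apart either.

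Most members were higher under each of the 3 chemicals, and EGR1 and FOS were the members that rose under each of them with the least exception across populations. EGR1, a zinc finger factor induced by ERK signalling, averaged 9.85 CPM ± 4.81 (SD, n = 24 wells) under DMSO, 27.5 ± 9.25 (n = 17) under CSC, 26.9 ± 11.6 (n = 19) under BaP and 35.3 ± 13.9 (n = 21) under NNK. FOS, an AP-1 subunit with a short-lived message, averaged 2.60 CPM ± 1.14, 8.43 ± 2.87, 7.89 ± 3.98 and 10.0 ± 3.78 in the same wells. The populations behind these means differ between chemicals, with no CDKN2A well under CSC, so the means do not compare the chemicals alone. Each SD also holds differences between populations. In the populations compared between NNK and BaP, EGR1 averaged 29.3 and 27.2 CPM and FOS 8.82 and 7.56. All of these means rest on few molecules: EGR1 had 4 to 30 UMIs in a DMSO well and 15 to 67 in an NNK well, and FOS 0 to 7 and 3 to 20.

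In the control population HcRed, EGR1 stood at 9.41, 14.7 and 10.1 CPM in the DMSO wells, 23.9, 30.1 and 42.9 in the CSC wells and 38.2, 50.9 and 47.7 in the NNK wells. All 6 exposed wells lay above all 3 DMSO wells, and the lowest NNK well lay below the highest CSC well. In the GFP control, EGR1 was lower throughout, at 3.36, 3.32 and 2.93 CPM under DMSO, 22.4, 12.8 and 10.1 under CSC, 11.6, 9.57 and 12.2 under BaP, and 13.0, 16.8 and 15.9 under NNK. The GFP wells kept the same separation from their own DMSO wells, although their exposed levels overlapped the unexposed levels of HcRed. In PIK3CA cells, the population with the highest DMSO mean, EGR1 was 16.6, 20.1 and 14.4 CPM under DMSO, 37.2, 37.1 and 36.99 under CSC, 32.9, 44.96 and 37.5 under BaP and 55.2, 45.4 and 39.5 under NNK.

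Counting populations with at least 2 wells under NNK and 3 wells in every other group compared, every exposed well exceeded every DMSO well of its population for EGR1 in 5 of 5 populations under CSC, 5 of 5 under BaP and 7 of 7 under NNK. Over all genes tested, 7.13%, 6.73% and 5.93% of gene and population pairs separated upward in this way. FOS separated in 5 of 5 populations under CSC, 3 of 5 under BaP and 7 of 7 under NNK. The 2 exceptions were GFP and NRF2 under BaP. In GFP, FOS was 2.52, 0 and 1.47 CPM under DMSO and 5.41, 2.13 and 3.74 under BaP. In FGFR1 cells the separation under NNK was narrow, since the third NNK well held 3 UMIs (4.33 CPM) and the highest DMSO well reached 4.19 CPM. Within populations the fitted log2 change of EGR1 ranged from 1.15 to 2.05 under CSC, 1.20 to 2.04 under BaP and 1.48 to 2.24 under NNK, and that of FOS from 0.81 to 2.08, 0.46 to 2.08 and 1.29 to 2.61.

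**Figure D1:**
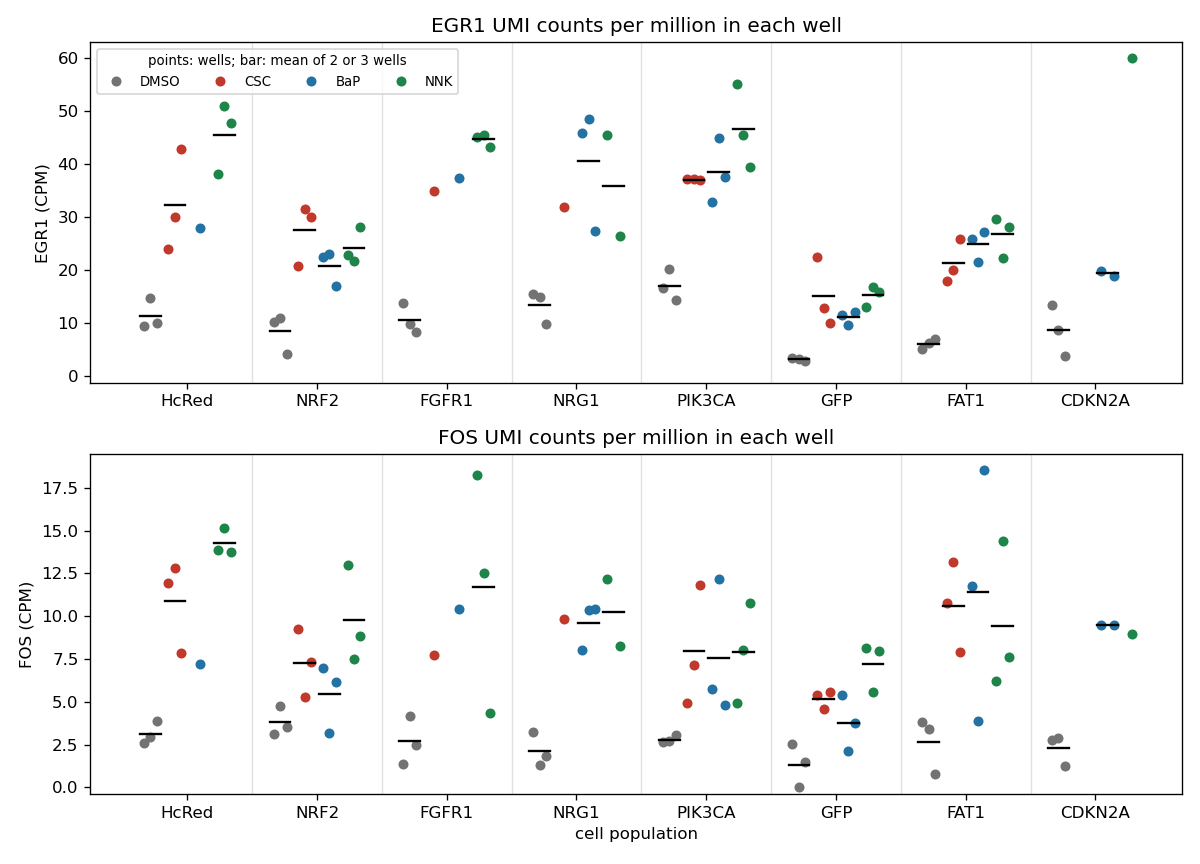
EGR1 (upper) and FOS (lower) as CPM (y axis) in each well, by cell population (x axis) and chemical (colour); points are wells and bars are means of 2 or 3 wells. In each population with 3 wells per group the DMSO points of EGR1 lie below all exposed points, and GFP cells have the lowest EGR1 mean under DMSO, 3.20 CPM.

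Across the 5 populations with 3 wells under both CSC and DMSO, 7 of the 9 members tested were higher under CSC and none was lower, where 2.95% of all 11371 genes tested were called higher and 2.87% lower (limma with voom weights, Benjamini-Hochberg adjusted p threshold 0.05). The list had been drawn up with earlier results of these data known, so this count and those below describe the list and are no independent support for its direction. The median log2 change of the members was 1.00, against a median over all genes of -0.001. FOSB, the remaining member, did not pass the filter on low counts in any comparison: it had 20 UMIs in the 81 wells and none in 63 of them.

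FOSL1, which encodes the AP-1 subunit FRA-1, had the highest fitted change under CSC. In HcRed it was 0.86, 1.47 and 0.77 CPM under DMSO and 3.99, 6.02 and 5.25 under CSC, and in GFP 0, 1.66 and 2.93 under DMSO and 7.18, 7.33 and 6.71 under CSC. The groups did not overlap in either control, nor in NRF2 and FAT1 cells, and overlapped in PIK3CA cells, where the DMSO wells ran from 0.67 to 7.29 CPM. In FAT1 cells the CSC wells stood at 1.44, 1.72 and 1.06 CPM, on 2, 3 and 2 UMIs. Over the 15 wells of each chemical FOSL1 averaged 5.52 CPM under CSC and 1.57 under DMSO, a log2 change of 1.89 ± 0.29 (SE, adjusted p = 9.54e-07, limma).

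The other AP-1 members that could be tested were also higher, by smaller amounts, and FOSB was not tested. FOS had a log2 change of 1.53 ± 0.22 under CSC (SE, adjusted p = 1.77e-07, limma), JUN 0.84 ± 0.25 (adjusted p = 0.0242, limma) and JUNB 1.00 ± 0.30 (adjusted p = 0.0312, limma). JUN, a partner of FOS proteins in AP-1, averaged 5.52 CPM under CSC and 3.16 under DMSO, and separated fully in 1 of 5 populations, FAT1. JUNB averaged 3.95 and 2.36 CPM and also separated in FAT1 alone. The calls of these 2 genes were the least stable of the list under CSC, since JUNB was no longer past the threshold in 10 of 14 alternative fits and JUN in 6 of 15, always with the sign unchanged.

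EGR1 had a log2 change of 1.52 ± 0.13 under CSC (SE, adjusted p = 4.05e-15, limma), IER3 1.47 ± 0.19 (adjusted p = 8.2e-09, limma) and MYC 0.66 ± 0.14 (adjusted p = 0.000679, limma). IER3 averaged 12.4 CPM under CSC against 4.47 under DMSO and separated in 4 of 5 populations. The exception was HcRed, where the CSC wells were 6.65, 20.3 and 17.5 CPM and the DMSO wells 8.56, 7.35 and 3.87, and the lowest CSC well fell within the DMSO range. IER2 (8.22 against 5.96 CPM, log2 difference 0.42 ± 0.17, adjusted p = 0.134, limma) and KLF6 (15.3 against 13.5 CPM, 0.17 ± 0.13, adjusted p = 0.577, limma) did not pass the threshold.

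Under BaP, 6 of the 9 members tested were higher and none was lower, against 4.68% of 11306 genes called higher and 4.43% lower, over the 5 populations with 3 wells under both chemicals. The median member log2 change was 0.78, beside 0.003 over all genes. EGR1 changed by 1.52 ± 0.13 (SE, adjusted p = 1.13e-15, limma), FOS by 1.48 ± 0.25 (adjusted p = 1.1e-05, limma) and IER3 by 1.20 ± 0.19 (adjusted p = 1.13e-06, limma). JUN (0.78 ± 0.24, adjusted p = 0.0245, limma), MYC (0.65 ± 0.17, adjusted p = 0.00491, limma) and IER2 (0.57 ± 0.16, adjusted p = 0.0116, limma) completed the 6. The JUN call was lost in 6 of 14 alternative fits, among them those without each replicate number in turn, and the IER2 call in 5 of 15. IER3 separated in 4 of 5 populations, as in NRF2 cells, where it was 0.79, 2.72 and 2.11 CPM under DMSO and 9.29, 7.97 and 5.41 under BaP.

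FOSL1 stood at the threshold under BaP, at 3.64 against 1.96 CPM with a log2 difference of 0.89 ± 0.30 (SE, adjusted p = 0.0514, limma). In NRG1 cells it was 3.23, 2.59 and 3.05 CPM under DMSO and 5.10, 8.65 and 10.4 under BaP, without overlap. In FAT1 cells it was 0.63, 0.57 and 0.77 CPM under DMSO and 0.79, 0 and 0 under BaP, on at most 1 UMI a well. JUNB (3.12 against 2.41 CPM) and KLF6 (15.8 against 13.6 CPM) did not pass the threshold, with log2 differences of 0.51 ± 0.32 (adjusted p = 0.387, limma) and 0.25 ± 0.14 (adjusted p = 0.299, limma). MYC rose without overlap in FAT1, GFP and NRG1 cells, and without NRG1 its log2 difference was 0.43 (adjusted p = 0.14, limma). The BaP count was 4 members when the NRG1 population, the wells numbered 1 or the wells numbered 3 were left out.

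The NNK wells contributed to the choice of the list, so their changes are given as a description. Over 7 populations, 7 of the 9 members lay past the threshold upward and none downward, with 9.97% of 11279 genes called higher and 9.8% lower. The median member log2 change was 0.75, against -0.01 over all genes. EGR1 averaged 34.1 CPM under NNK (n = 20) and 10.0 under DMSO (n = 21), a log2 change of 1.83 ± 0.11 (SE), and FOS 10.1 and 2.65 CPM, a change of 1.92 ± 0.19. IER2 (0.86 ± 0.15), JUNB (0.84 ± 0.25), IER3 (0.75 ± 0.16), MYC (0.41 ± 0.13) and KLF6 (0.38 ± 0.11) followed, and FOSL1 (0.27 ± 0.28) and JUN (0.53 ± 0.21) stayed inside the threshold. Without the wells numbered 1 the count was 4, with JUNB, KLF6 and MYC no longer past the threshold.

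The largest changes under NNK were those of FOS, EGR1 and IER2. IER2 in PIK3CA cells was 5.96, 7.38 and 5.32 CPM under DMSO and 11.8, 12.5 and 14.4 under NNK, and it separated in 4 of 7 populations (FAT1, HcRed, NRF2 and PIK3CA). JUNB separated in PIK3CA cells (3.98, 3.36 and 0.76 CPM under DMSO, 5.91, 6.23 and 6.28 under NNK) and in NRF2 cells. In GFP cells JUNB went from 2.52, 4.98 and 2.20 CPM under DMSO to 0.82, 2.23 and 1.77 under NNK, and these wells overlapped.

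**Figure D2:**
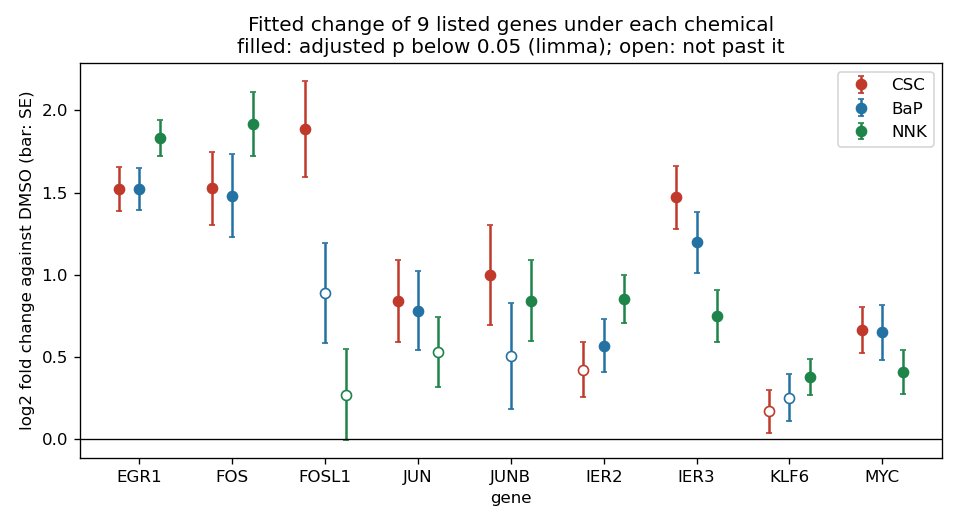
Fitted log2 fold change against DMSO (y axis, bars are SE) of 9 listed genes (x axis) under CSC, BaP and NNK; filled points passed the adjusted p threshold of 0.05 (limma) and open points did not. EGR1 and FOS lie between 1.48 and 1.92 under all 3 chemicals, whereas FOSL1 runs from 1.89 under CSC to 0.27 under NNK; the 3 fits share DMSO wells.

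The exposures were also compared with each other directly, in the populations with wells under both, which needs no DMSO wells. Between NNK and CSC, EGR1 was the single member past the threshold upward, at 31.7 CPM under NNK against 26.7, a log2 difference of 0.32 ± 0.10 (SE), where 7.3% of genes were called higher. Its rise under NNK was known when the list was chosen, so this value too is a description. FOSL1, IER3 and MYC were lower under NNK, where 4.93% of genes were called lower. FOSL1 averaged 1.93 CPM under NNK and 5.52 under CSC, a log2 difference of -1.41 ± 0.28 (SE, adjusted p = 0.000153, limma). IER3 averaged 7.61 and 12.4 CPM (-0.62 ± 0.16, adjusted p = 0.00394, limma) and MYC 13.6 and 18.8 CPM (-0.38 ± 0.13, adjusted p = 0.0341, limma). The FOSL1 difference was past the threshold in all 7 alternative fits that gave it an adjusted p, whereas the count of 4 fell to 2 without the wells numbered 1 (FOSL1 and IER3) and to 1 without those numbered 2 (FOSL1).

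FOSL1 was also the 1 member that differed between BaP and CSC, at 2.53 against 5.63 CPM over 12 wells each, a log2 difference of -1.14 ± 0.29 (SE, adjusted p = 0.00801, limma), where 1.56% of genes were called lower and 3.02% higher. In GFP cells the wells did not overlap, at 0.77, 2.13 and 0.94 CPM under BaP and 7.18, 7.33 and 6.71 under CSC. In FAT1 cells they did not overlap either, on at most 1 UMI a well under BaP and 3 under CSC. The wells overlapped in NRF2 cells (0 to 4.64 CPM under BaP, 2.31 to 6.78 under CSC) and in PIK3CA cells (4.79 to 7.87 and 6.30 to 11.1). The share of all genes that separated between BaP and CSC was not determined. This call was lost without the wells numbered 1 (adjusted p = 0.0682, limma) and without those numbered 2 (adjusted p = 0.122, limma). No member passed the threshold between NNK and BaP, where 5.1% of genes did in either direction (limma). IER3 and MYC had an unadjusted p under 0.05 in that fit, and none passed by edgeR or DESeq2, which gave no adjusted p for FOSL1, JUN and JUNB. EGR1 differed by 0.20 ± 0.10 (SE) and FOS by 0.34 ± 0.19 on the log2 scale between NNK and BaP.

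**Figure D3:**
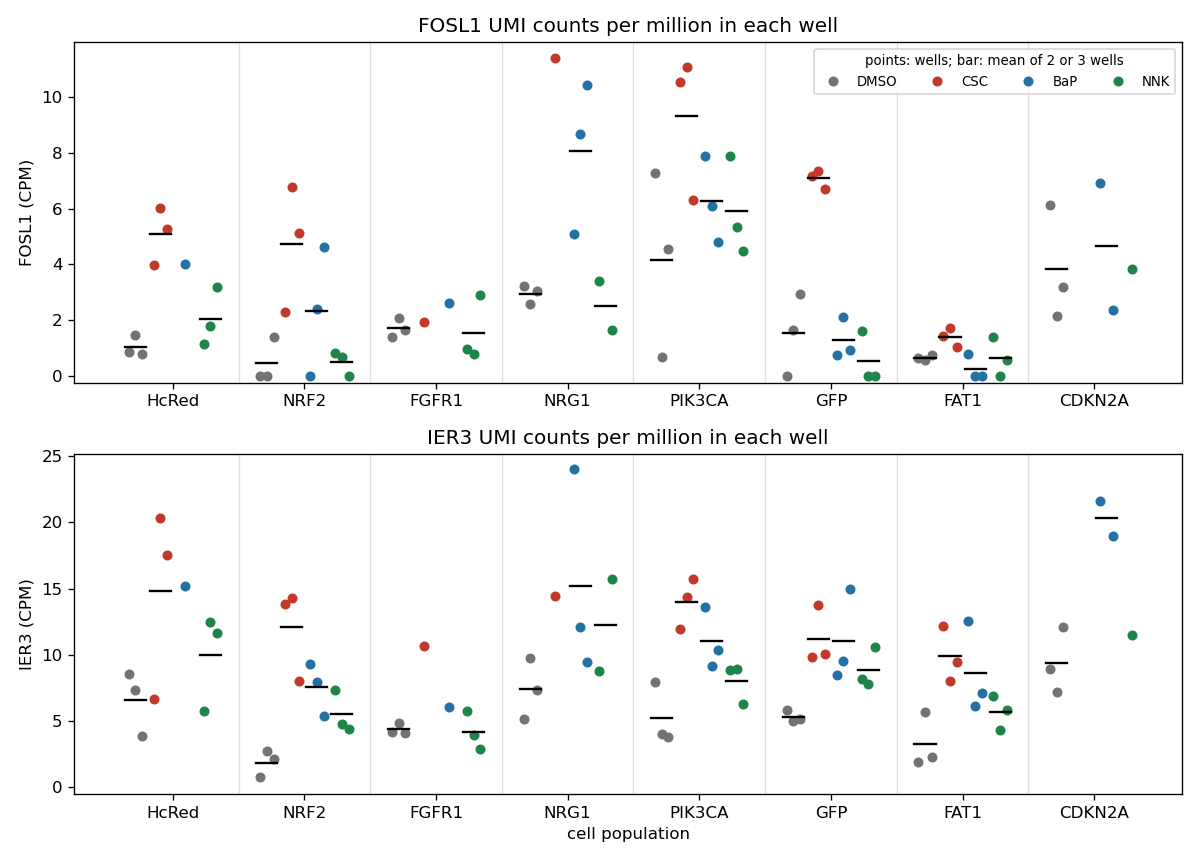
FOSL1 (upper) and IER3 (lower) as CPM (y axis) in each well, by cell population (x axis) and chemical (colour); points are wells and bars are means of 2 or 3 wells. FOSL1 is higher under CSC than under NNK in mean, 5.52 against 1.93 CPM over the populations with 3 wells under both. The FAT1 wells are low under each chemical.

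Other genes of the pathway are given by lists of known members. These lists too were chosen with earlier results of these data known, so their counts are a description. Of all genes tested, 2.95% were called higher and 2.87% lower under CSC. The shares were 4.68% and 4.43% under BaP and 9.97% and 9.8% under NNK. Among 25 other immediate early genes tested under CSC, 6 were higher and 1 lower. DUSP1, the phosphatase that switches off MAP kinases and is itself an immediate early gene, was higher under all 3 chemicals, with log2 changes of 1.08 ± 0.11 (CSC), 0.95 ± 0.12 (BaP) and 0.94 ± 0.10 (NNK, all SE). HES1, a Notch target, changed by 1.19, 0.96 and 0.81 in the same order, and ZFP36L1, which promotes message decay, by 0.69, 0.50 and 0.53. Under BaP 6 of 26 were higher and none lower, with KLF4 (0.92) and PPP1R15A (0.70) among them, and under NNK 9 of 25 were higher and 1 lower, BTG2 at -0.84. Median changes of this list were 0.29, 0.23 and 0.25.

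ERK feedback genes are known to be induced by ERK and mostly restrain it. Only their RNA levels are given here, and ERK activity was not measured. Under CSC, 3 of 11 were higher, the phosphatases DUSP6 (1.24 ± 0.22, SE, adjusted p = 3.17e-05, limma) and DUSP4 (1.14 ± 0.21, adjusted p = 4.62e-05, limma) and the cyclin CCND1 (0.40 ± 0.10, adjusted p = 0.00365, limma). Under BaP and under NNK none of 11 was called in either direction (limma), with a median of -0.08 in both. Of all genes, 4.68% were called higher and 4.43% lower under BaP, and 9.97% and 9.8% under NNK. At such shares few of any 11 genes would be called. Compared directly, 7 of 11 were lower under NNK than under CSC and 5 of 12 lower under BaP than under CSC, including DUSP6 at -1.01 and -0.78 and ETV5, an ETS factor, at -0.85 and -0.86. Of all genes, 4.93% were called lower under NNK than under CSC and 1.56% lower under BaP than under CSC. The EGFR ligand AREG rose under each chemical, to 202 CPM from 70.3 under CSC, to 153 from 80.2 under BaP and to 138 from 80.1 under NNK. EREG, another EGFR ligand, was higher under CSC (1.02) and BaP (0.74). Of 25 upstream receptors, kinases and partners, 7 were lower under NNK, EGFR (-0.41) and ELK4 (-0.44) among them, where 9.8% of all genes were called lower.

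Among genes that AP-1 is known to activate, 4 of 9 were higher under CSC, among them the urokinase receptor PLAUR (0.57), HMGA1 (0.55) and the collagenase MMP1, which stood at 1.53 against 0.29 CPM. Under BaP and NNK none of 8 was higher and 2 were lower, the hyaluronan receptor CD44 (-0.32 and -0.41) among them. Among 16 MYC partners and targets tested under each chemical, 1 was higher and 1 lower under CSC, 1 and 4 under BaP and 2 and 3 under NNK. Beside these counts and the marker counts below, 2.95% of all genes were called higher and 2.87% lower under CSC. The shares were 4.68% and 4.43% under BaP and 9.97% and 9.8% under NNK. Nucleolin, NCL, a classical MYC target, was lower under BaP (-0.27) and NNK (-0.35), while MYC itself was higher in these fits. Markers of cell type also moved in the same wells. Of 9 basal markers tested, 3 were lower and none higher under CSC, 5 lower and none higher under BaP, and 4 lower and 2 higher under NNK (KRT17 at 0.25 and S100A2 at 0.39). KRT14 changed by -0.88, -0.96 and -0.34 and KRT5 by -0.46, -0.34 and -0.26 under CSC, BaP and NNK. Of 5 general epithelial markers, 2 were lower under CSC (KRT8 and KRT19), 1 lower under BaP (KRT19) and 1 higher under NNK (CDH1, 0.50). CD68, a gene of macrophage lysosomes, was higher under CSC (0.88) and BaP (0.42), while the leukocyte marker PTPRC had 3 UMIs in all. The summed level of the 10 basal markers overlapped between chemicals, at 3410 to 7710 CPM under DMSO, 3410 to 6260 under CSC, 3030 to 8030 under BaP and 4370 to 9550 under NNK. S100A2 alone averaged 4570 CPM, so the sum mostly follows this gene and does not show shifts of the other markers. The part of the basal markers in the changes above was not tested.

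Whether populations differed in their response was tested by F statistics on the interaction of population and chemical. No member was called in any of the 3 tests (limma), where 0.106% of genes were called for CSC, 0.115% for BaP and 0.0621% for NNK, and edgeR also called none. MYC under BaP was the 1 member with an unadjusted p under 0.05 (F = 4.02, adjusted p = 0.496, limma). Its log2 change under BaP ran from -0.03 in NRF2 cells to 1.52 in FAT1 cells. In NRF2 cells MYC was 20.5, 19.1 and 12.7 CPM under DMSO and 15.5, 14.3 and 19.3 under BaP, and in FAT1 cells 6.98, 7.93 and 0.77 and then 12.6, 13.1 and 12.1.

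In the absence of a carcinogen, MYC was higher in the CDKN2A knockout than in its control. Under DMSO, MYC averaged 4.71 CPM ± 1.70 (SD, n = 3) in GFP cells, 5.23 ± 3.89 in FAT1 knockouts and 19.3 ± 6.83 in CDKN2A knockouts, where the wells were 12.3, 25.9 and 19.7 against 4.20, 3.32 and 6.60 in GFP. The other populations averaged 16.2 CPM (HcRed), 17.4 (NRF2), 17.4 (PIK3CA), 14.9 (NRG1) and 9.24 (FGFR1). The CDKN2A mean thus lay near most of them, and GFP had the lowest mean. The CDKN2A and GFP wells also stood in different plate rows and columns, which cannot be told apart from the knockout. MYC was the 1 member called between CDKN2A and GFP (log2 difference 1.78 ± 0.39, SE, adjusted p = 0.000232, limma), where 8.6% of genes were called higher. EGR1 stood at 13.4, 8.64 and 3.82 CPM in the CDKN2A wells, above all 3 GFP wells, with a log2 difference of 1.08 ± 0.48 (adjusted p = 0.11, limma). It passed the threshold when the third CDKN2A well was left out (1.53, adjusted p = 0.0161, limma). IER3 also separated from GFP (8.93, 7.20 and 12.1 against 5.88, 4.98 and 5.13 CPM, adjusted p = 0.292, limma), and 21.6% of genes separated upward in this pair.

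The GFP and HcRed controls themselves differed. EGR1 (3.20 CPM ± 0.24 against 11.4 ± 2.89, SD, n = 3) and MYC (4.71 ± 1.70 against 16.2 ± 1.95) were lower in GFP, by log2 differences of -1.66 ± 0.43 (SE, adjusted p = 0.00673, limma) and -1.68 ± 0.37 (adjusted p = 0.00103, limma), where 4.86% of genes were called lower. All GFP wells of EGR1, FOS, JUN and MYC lay below all HcRed wells, as did those of 15.9% of genes. The 2 controls carried different constructs and stood in different plate columns, and these cannot be told apart. With all chemicals that had 3 wells in both populations, FOS (-1.02, adjusted p = 0.00108, limma) and KLF6 (-0.67, adjusted p = 0.0081, limma) were also lower in GFP, and 23.3% of genes were called in either direction in that fit.

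No member was called for NRF2, FGFR1, NRG1 or PIK3CA against HcRed under DMSO, nor for FAT1 against GFP (limma), where 4.92%, 0.905%, 3.1%, 5.37% and 14.1% of genes were called in either direction. Unadjusted p-values under 0.05 were found for IER3 in NRF2, JUNB and MYC in FGFR1 and EGR1 in PIK3CA cells. IER3 in NRF2 cells was 0.79, 2.72 and 2.11 CPM against 8.56, 7.35 and 3.87 in HcRed, without overlap, as in 13.5% of genes (log2 difference -1.55 ± 0.57, SE, adjusted p = 0.116, limma), and passed the threshold without the third HcRed well (-1.85, adjusted p = 0.0389, limma). MYC in FGFR1 cells was 8.31, 6.98 and 12.4 CPM against 15.4, 18.4 and 14.7, also without overlap, as in 7.1% of genes (-0.84 ± 0.32, adjusted p = 0.274, limma). FOSL1 in NRG1 cells was 3.23, 2.59 and 3.05 CPM against 0.86, 1.47 and 0.77, on 5, 4 and 5 UMIs and 1, 2 and 1.

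Over all chemicals with 3 wells in both, FAT1 knockouts differed from GFP in 4 of the 9 members tested, where 33.1% of all genes were called in either direction. EGR1 (0.89, adjusted p = 4.51e-07), FOS (0.86, adjusted p = 0.00526) and IER2 (0.62, adjusted p = 0.0111) were higher and FOSL1 (-1.28, adjusted p = 0.0048) lower on the log2 scale (limma). In the same kind of fit EGR1 was lower in NRF2 cells than in HcRed (-0.54, adjusted p = 0.00791, limma). FOSL1 was higher in PIK3CA cells (1.05, adjusted p = 0.0165, limma). Each was the 1 member called, where 10.7% and 13.2% of genes were called in either direction. The counts in these 3 comparisons lie near what such shares would give for any list this short, so they set the members apart from other genes in none of them.

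**Figure D4:**
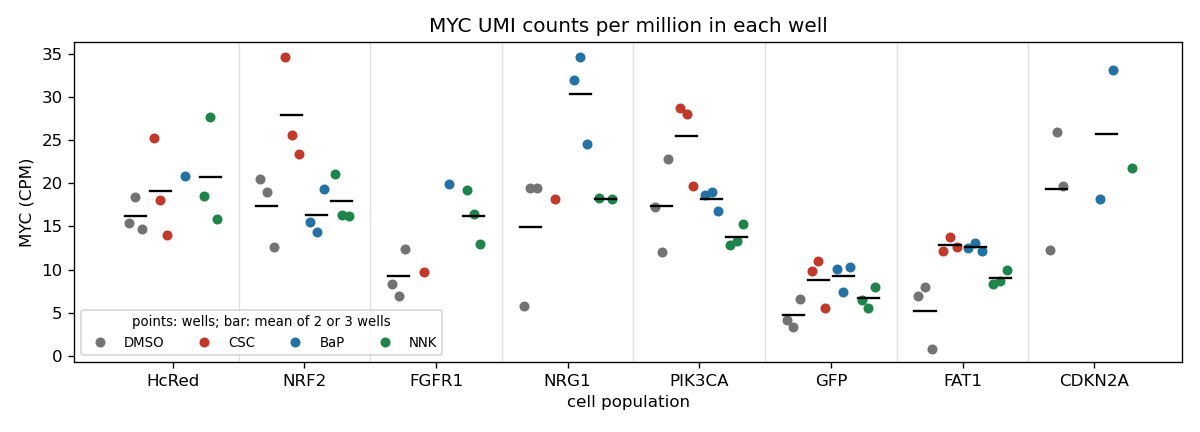
MYC as CPM (y axis) in each well, by cell population (x axis) and chemical (colour); points are wells and bars are means of 2 or 3 wells. GFP and FAT1 cells have the lowest DMSO means, 4.71 and 5.23 CPM, and NRG1 cells under BaP the highest group mean, 30.4 CPM.

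The members did not vary as a single block across conditions. Over the means of the 26 groups with at least 2 wells, on the log2(CPM + 1) scale, Pearson's r was 0.865 between EGR1 and FOS, 0.767 between EGR1 and IER2 and 0.747 between FOS and IER2. FOSL1 went with IER3 (0.642) and KLF6 (0.577) and little with FOS (0.134), and KLF6 went with MYC (0.675). Over the 81 wells the r of EGR1 and FOS was 0.731, and after subtracting each group's mean it was -0.01, with all pairs among the 9 members other than FOSB between -0.24 and 0.24. The likeness was seen between groups, which share chemicals, populations and plate rows. Within a group the wells held few UMIs of most members, so counting alone adds much of their spread. The low values there cannot show whether members vary together between replicate wells.

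The members were also set against 4988 genes outside the list with a mean of at least 10 CPM. Among these, the closest to EGR1 over the same 26 group means was DUSP1 (r = 0.876), followed by AREG (0.775) and CD63 (0.755). Among the same genes DUSP1 was also closest to FOS (0.812), ahead of ATP6V0E1 (0.768) and DDIT4 (0.757). The member EGR1 was closer to FOS (0.865), and closer to IER2 (0.767) than any of these genes. FOSL1 was most like GNPNAT1 (0.86), SLC20A1 (0.82) and UPP1 (0.814), and IER3 most like the cytokine IL1A (0.863), CYP1B1 (0.78) and WDR74 (0.766). MYC was most like EXOSC4 (0.885), EIF3D (0.83) and OSTC (0.828), and KLF6 like ATIC (0.838), CDA (0.834) and MT1L (0.833). IER2 was most like NAT1 (0.686), JUN like AKR1C3 (0.612) and JUNB like PLAUR (0.565), the weakest leading values of the members with counts in most wells.

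**Figure D5:**
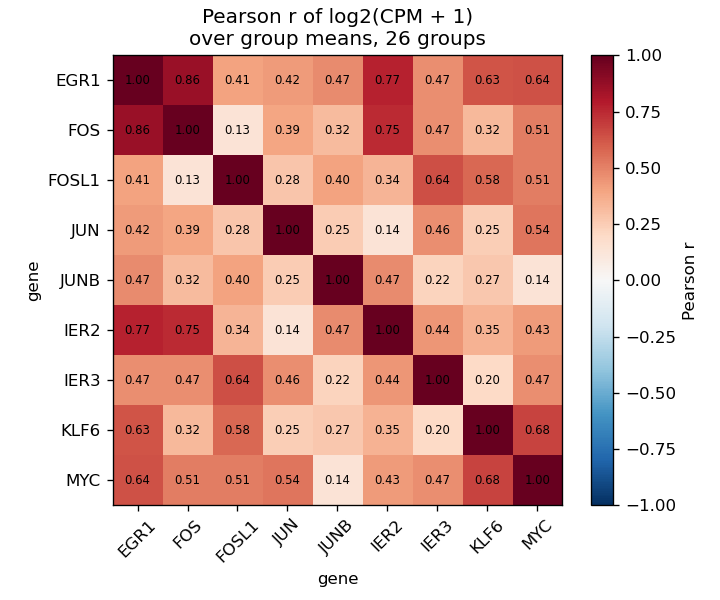
Pearson's r (colour and number) between the members other than FOSB (both axes) over 26 group means of log2(CPM + 1). EGR1, FOS and IER2 have pairwise values between 0.75 and 0.87, whereas FOS and FOSL1 have 0.13.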

How the data were processed

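The deposited files held raw UMI counts per gene and well, not normalized. Per the study's methods the authors received them already quantified: reads were aligned to RefSeq hg19 transcripts with BWA 0.7.10 and each UMI was counted once per gene and well, so a count is a molecule seen at the 3′ end and does not scale with transcript length. Groups and replicate numbers came from the sample titles. The 10 members and the other gene lists were chosen with earlier results of these data known.

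Levels were CPM on the total count of each well. Differences were fitted over all genes with a mean count above 1 in the compared wells, with limma 3.58.1 (voom weights, TMM factors from edgeR 4.0.16, R 4.3.3), two-sided, with Benjamini-Hochberg adjustment and a threshold of 0.05. Chemicals were compared with population as a covariate, and populations within DMSO. Genes named beside the members were the 3 with the highest r for each member and list genes past the threshold. Some list genes are not reported here. Alternatives were other size factors, filters of none and above 5, edgeR's quasi-likelihood test, DESeq2 1.42.0, a replicate block, wells left out and wells added. The code was tested on simulated counts. Gene positions were taken from a GENCODE annotation of hg19 and promoters from RefSeq.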

Additional observations from a re-analysis of the deposited data

Results flagged for a closer look

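The 13 wells with 2-digit replicate numbers stood outside the comparisons. In 28 of 60 combinations of member and group (46.7%) all such wells exceeded all DMSO wells of their population, against 9.71% of combinations over the 11319 genes with a mean count above 1. One of the 28 was FOSB in HcRed cells under BaP, at 0.86 and 1.01 CPM on 1 UMI each, against 0 in each DMSO well. In 3 combinations all such wells lay below, against 17.1% over all genes: JUNB (0.51 CPM on average) and IER3 (3.64) in FGFR1 cells under BaP and KLF6 (12.6) in FGFR1 cells under CSC. The means here and in the next paragraph are of the other combinations among the 28, all above their DMSO wells. Combinations not listed overlapped their DMSO wells or are the 3 that lay below. Mean EGR1 was 31.9 CPM in FGFR1 and 33.5 in NRG1 cells under CSC, 32.9 in HcRed and 33.3 in FGFR1 cells under BaP, and 34.9 in CDKN2A cells under NNK. Mean FOS was 7.54 CPM in CDKN2A and 8.97 in NRG1 cells under CSC, 13.9 in HcRed and 6.22 in FGFR1 cells under BaP, and 6.39 in CDKN2A cells under NNK. EGR1 in CDKN2A cells under CSC (17.3 CPM) and FOS in FGFR1 cells under CSC (3.93) overlapped their DMSO wells. EGR1 and FOS were each above all DMSO wells of their population in 12 of the 13 wells.

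FOSL1 averaged 7.36 CPM in FGFR1 and 9.99 in NRG1 cells under CSC, and 4.39 in HcRed and 2.60 in FGFR1 cells under BaP. IER3 averaged 11.7 CPM in FGFR1 and 20.3 in NRG1 cells under CSC, 10.3 in HcRed cells under BaP and 15.3 in CDKN2A cells under NNK. MYC averaged 16.2 CPM in FGFR1 and 26.9 in NRG1 cells under CSC and 18.3 in FGFR1 cells under BaP. JUN averaged 6.03 CPM in HcRed and 9.97 in FGFR1 cells under BaP, IER2 12.6 in FGFR1 cells under CSC and 14.0 in CDKN2A cells under NNK, and KLF6 24.5 in NRG1 cells under CSC and 17.8 in HcRed cells under BaP.

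The second NNK replicate of NRG1, also left out, exceeded all other 1-digit wells for 5 members. It held EGR1 at 123 CPM (181 UMIs), against 26.4 and 45.4 in the other NRG1 NNK wells. FOS stood at 21.7 CPM, FOSL1 at 16.3, IER3 at 32.5 and KLF6 at 64.4. The remaining members did not exceed all other wells: MYC stood at 27.8 CPM, IER2 at 11.5, JUNB at 7.46, JUN at 4.75 and FOSB at 0.68.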

How the results depend on the processing

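Directions held throughout: no called value of a member changed sign under any alternative, and the 40 mean levels moved by less than 1 SD with TMM-scaled library sizes. The count of members called stayed within 1.5 times its main value in most alternatives. Leaving out 1 replicate number or well gave 5 to 6 members for CSC, 4 to 5 for BaP and 4 to 7 for NNK against DMSO, 1 to 4 for NNK against CSC, 0 to 1 for BaP against CSC, 0 to 1 for NRF2 against HcRed and 1 to 2 for CDKN2A against GFP, and the same count as the main fit elsewhere. Leaving out 1 population gave 5 to 6 for CSC, 4 to 6 for BaP and 6 to 8 for NNK against DMSO. With no filter NNK against CSC gave 2 members, EGR1 and MYC being lost. By edgeR CDKN2A against GFP gave 2, EGR1 being added. Over all chemicals with 3 wells in both populations, NRF2 and PIK3CA against HcRed gave 1 each, and FAT1 against GFP and GFP against HcRed 4 each; for CDKN2A this fit was the same as the DMSO fit. DESeq2 gave no adjusted p for many low members, and its count was not used where every called member, or every tested member, lacked one, as in BaP against CSC and 6 of the 7 population comparisons. The NRG1 well that was left out of the main fits changed no member count where it was kept, and it was not part of NNK against CSC.

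With a replicate block the member counts were 7, 6 and 7 for CSC, BaP and NNK against DMSO, as without it. The same holds for the other 13 comparisons. Same-numbered wells of different groups did not deviate together, with r from -0.11 to 0.11 over 112 pairs and 2 pairs over 0.1, so the numbers were not taken to pair the wells. At these depths FOSB, at 0 in 63 of 81 wells, and changes of JUN, JUNB and FOSL1 on a few UMIs were at the limit of detection.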
